A study of Mus musculus with 10 samples.

Results

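The rod phototransduction cascade was followed in mouse retina through 9 genes, Gnat1, Gnb1 and Gngt1 for the transducin subunits, Pde6a, Pde6b and Pde6g for the phosphodiesterase subunits, Cnga1 and Cngb1 for the cation channel, and Sag for rod arrestin. They were taken by gene symbol from the array's probe table, where each had a transcript cluster, and they are 9 of the 19505 genes measured. The 10 arrays, each from the retina of 1 mouse, fell into 5 groups of 2: CLN3-deficient mice exposed to light and given minocycline, an antibiotic that dampens microglia, CLN3-deficient mice exposed to light and given the NaCl vehicle, unexposed CLN3-deficient mice, light-exposed wild-type mice and unexposed wild-type mice. The CLN3-deficient animals carried the Cln3 delta ex7/8 allele, a model of juvenile neuronal ceroid lipofuscinosis, and by the study's methods both genotypes also carried the light-sensitive leucine variant of Rpe65, the isomerase that regenerates the visual chromophore. The methods place both genotypes on a C57BL/6J background, whereas the labels give Balb/c as the strain of the wild-type mice, and the animals were 8 to 10 weeks old and of both sexes. Mice were dark-adapted for 16 h and exposed with dilated pupils. The wild-type arrays are labelled high light, given as 15000 lux for 60 min, while the CLN3-deficient arrays are labelled light only, and the treatment protocol assigns 10000 lux for 30 min to the minocycline experiment. Minocycline at 45 mg/kg or 0.9% NaCl was injected daily from the day before exposure, so the light-exposed CLN3-deficient mice were also injected mice, and no injection is described for the unexposed ones. The day of sampling for the arrays was not given in the sources used here.

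Rods turn the capture of light into an electrical signal. The light-activated visual pigment makes transducin exchange its nucleotide, the freed alpha subunit relieves the phosphodiesterase of its inhibitory gamma subunits, the enzyme hydrolyses cGMP, and the cGMP-gated channel of the outer segment closes. Arrestin then binds the phosphorylated pigment and ends its activity. The products of these genes fill the rod outer segment, and rods make up most cells of the mouse retina. Gnb1 differs from the others in that its beta subunit serves G proteins in many cell types.

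Promoters of 6 of the 9 genes were found in the RefSeq table (GRCm38.p6), each from 250 bases before to 50 bases after the annotated start. They are shown for the genes that were lower after light in both genotypes, Cngb1 (chr8:95306536-95306835, minus strand), Gngt1 (chr6:3993758-3994057, plus strand) and Sag (chr1:87803430-87803729, plus strand), and for Gnb1 (chr4:155491111-155491410, plus strand), which did not pass the test in either. Capitals mark matches, on either strand, to TAATCC, the core bound by the photoreceptor factor CRX, to TGCTGA, an element of the kind bound by the rod factor NRL, to TATAAA, the TATA box, and to GGGCGG, the GC box.
Cngb1: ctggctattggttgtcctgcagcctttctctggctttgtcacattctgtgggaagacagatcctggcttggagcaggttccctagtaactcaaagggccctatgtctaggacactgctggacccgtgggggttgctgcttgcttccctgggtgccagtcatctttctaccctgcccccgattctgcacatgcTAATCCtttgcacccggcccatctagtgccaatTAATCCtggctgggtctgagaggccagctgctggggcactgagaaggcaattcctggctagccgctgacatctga
Gngt1: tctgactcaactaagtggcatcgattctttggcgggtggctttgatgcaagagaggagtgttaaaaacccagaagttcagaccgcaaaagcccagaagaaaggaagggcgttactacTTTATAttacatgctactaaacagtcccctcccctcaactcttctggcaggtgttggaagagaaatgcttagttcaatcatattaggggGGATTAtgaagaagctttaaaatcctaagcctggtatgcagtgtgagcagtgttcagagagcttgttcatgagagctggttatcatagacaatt
Sag: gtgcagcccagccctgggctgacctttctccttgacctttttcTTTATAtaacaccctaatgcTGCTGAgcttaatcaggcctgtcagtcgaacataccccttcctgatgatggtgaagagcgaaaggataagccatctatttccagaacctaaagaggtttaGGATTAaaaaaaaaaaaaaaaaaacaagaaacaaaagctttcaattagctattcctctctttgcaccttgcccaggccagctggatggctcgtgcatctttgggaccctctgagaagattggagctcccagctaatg
Gnb1: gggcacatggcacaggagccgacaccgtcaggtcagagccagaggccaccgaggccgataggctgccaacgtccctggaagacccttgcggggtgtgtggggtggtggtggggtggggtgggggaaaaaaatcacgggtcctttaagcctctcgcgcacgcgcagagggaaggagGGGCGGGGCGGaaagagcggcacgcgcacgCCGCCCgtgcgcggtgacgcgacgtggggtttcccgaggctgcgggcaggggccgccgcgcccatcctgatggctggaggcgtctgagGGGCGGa

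The CRX-type core was matched in 4 of the 6 promoters, those of Cngb1, Gngt1, Sag and Cnga1, and in 7.1% of the 32851 promoters of the table. The matches did not follow the calls throughout. Cnga1 holds the core and passed the light test in neither genotype, and Pde6b lacks it and fell in wild-type retinas. Cngb1 held 2 copies, starting 58 and 25 bases before the start site. In Gngt1 it lay on the other strand from 44 to 39 bases upstream, and in Sag on the other strand from 87 to 82 bases upstream. The NRL-type element lay from 8 to 3 bases upstream in Pde6b and farther upstream, ending 182 bases before the start, in Sag, and 19.5% of promoters held it. Gnb1 had only the GC box, at 4 positions, of which the copies starting 75 and 70 bases upstream share 1 base. Its window held 70.3% G and C against a median of 52.7% over all promoters, and 35.7% of promoters had a GC box. The TATA box was matched in Gngt1 and Sag, on the other strand in both, and in 13.6% of promoters. These matches describe the letters of the window and not binding.

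**Figure D1:**
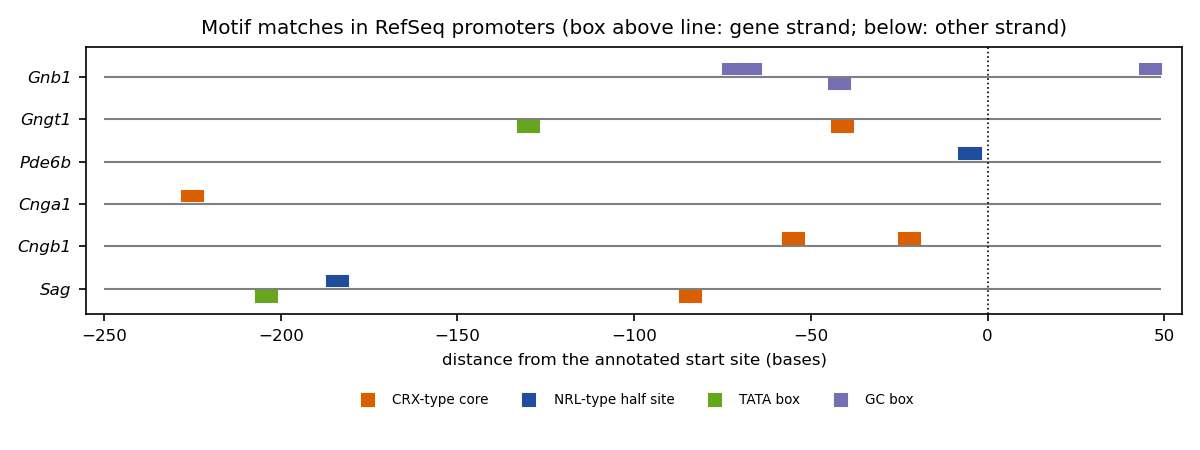
Motif matches in the 6 promoters found, by distance in bases from the annotated start site. Boxes above a line are on the gene's strand and boxes below it on the other strand. The CRX-type core appears in 4 of the 6 promoters and the GC box in Gnb1 alone.

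Values were log2 expression per transcript cluster and ran from 2.70 to 19.5 over the table, with array medians of 7.14 to 7.25. Replicate arrays correlated at 0.989 to 0.994 over all genes (Pearson's r). The targeted gene Cln3 read 9.14 to 10.18 on the 6 CLN3-deficient arrays and 10.25 to 10.72 on the 4 wild-type arrays, without overlap, although its difference between unexposed genotypes did not pass the test (log2 difference -1.35, adjusted p = 0.716), and where its probes lie relative to exons 7 and 8 was not checked. Y-linked transcripts were high on both vehicle arrays, 1 minocycline array and both unexposed wild-type arrays and low on the other 5, so sex and light cannot be told apart in the comparison of vehicle-treated exposed with unexposed CLN3-deficient retinas or in that of exposed with unexposed wild-type retinas. The 2 light comparisons are opposite in this respect, with Y-linked transcripts higher after light in CLN3-deficient retinas and lower after light in wild-type retinas. Skeletal muscle transcripts were high on 1 unexposed CLN3-deficient array (mean of 6 markers 9.38, against 5.69 to 6.82 on the other 9) and markers of the retinal pigment epithelium on 1 minocycline array (mean of 6 markers 10.81, against 8.22 to 9.43). Lens transcripts varied between groups and, in exposed CLN3-deficient retinas, between replicates. Their mean over 6 markers was 6.42 and 6.43 on exposed wild-type arrays, against 8.40 and 8.89 on unexposed ones, with 3 of the 6 called lower. In CLN3-deficient retinas it was 9.61 and 6.61 on minocycline arrays and 8.78 and 7.06 on vehicle arrays, against 6.63 and 6.03 on unexposed ones, with 1 called higher after light with vehicle. Every array with high Y-linked transcripts had a higher lens mean than any other array (7.06 and up, against 6.63 and below). The part of lens tissue in the rod values was not tested.

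Gnat1 and Gnb1 were among the brightest transcripts on every array. Gnat1 stayed within 0.17 to 0.40 log2 units of the array's highest value and Gnb1 within 0.26 to 0.70. Over the 10 arrays Gnat1 spanned only 0.21 and Gnb1 only 0.40, whereas Pde6b spanned 1.65, Pde6g 2.06 and Cngb1 2.72. The 7 genes with a mean of 18 or more had a median absolute change after light of 0.34 in wild-type retinas and 0.28 in CLN3-deficient retinas, against 0.49 and 0.50 for genes between 12 and 14. Whether the top of the scale limits the changes that Gnat1 and Gnb1 could show was not tested.

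Light exposure was accompanied by lower values across the cascade. In vehicle-treated CLN3-deficient retinas 3 of the 9 genes, Gngt1, Cngb1 and Sag, fell relative to unexposed CLN3-deficient retinas (limma, adjusted p under 0.05), where 11.0% of all genes were lower. In wild-type retinas 5 of the 9, Gngt1, Pde6b, Pde6g, Cngb1 and Sag, fell relative to unexposed retinas, where 15.6% of all genes were lower. None passed in the other direction in either genotype. In vehicle-treated CLN3-deficient retinas 7 genes had both arrays below both unexposed arrays (32.7% of all genes), and in wild-type retinas all 9 did (31.8%). The median log2 difference of the 9 genes was -0.69 in CLN3-deficient and -0.80 in wild-type retinas, beside 0.01 and 0.03 over all genes. Among the 2020 genes at least as bright on average as Cngb1, the dimmest of the 9, 20.2% were lower in CLN3-deficient and 24.4% in wild-type retinas. The median log2 differences of these 2020 genes were -0.21 and -0.27. In whole retina, fewer rods and less RNA per rod cannot be told apart.

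**Figure D2:**
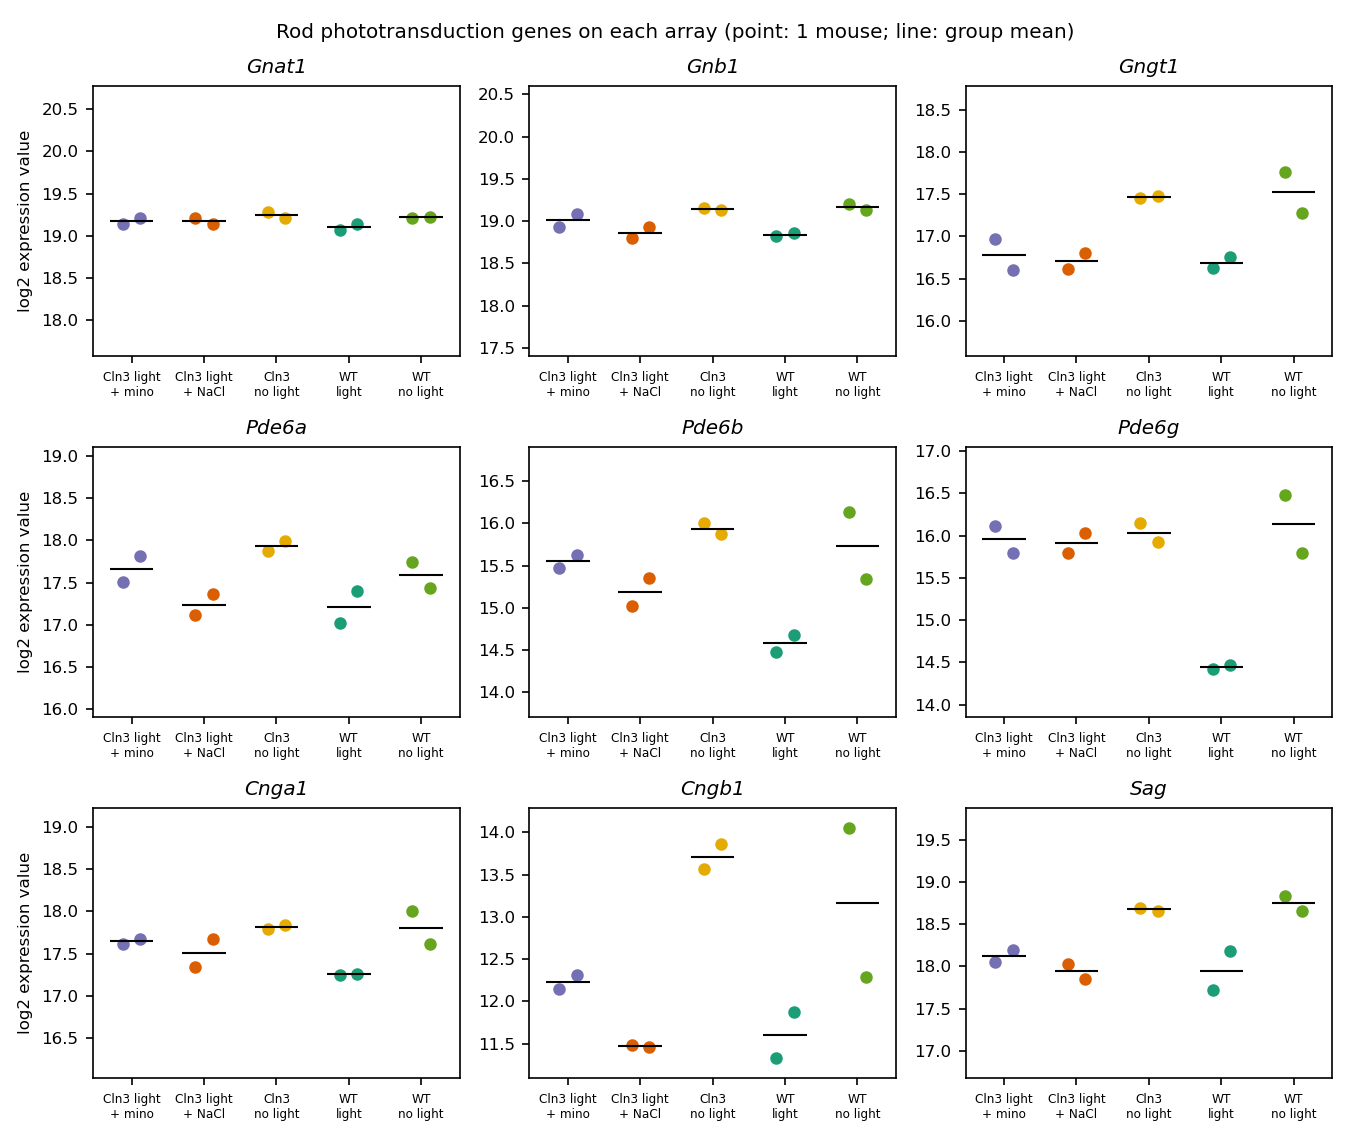
log2 expression value of each gene on each array, 1 point per mouse, with a line at the group mean. The minocycline and vehicle groups of light-exposed CLN3-deficient mice, the unexposed CLN3-deficient mice and the light-exposed and unexposed wild-type mice run from left to right, and every panel spans the same range of log2 units. Cngb1 shows the widest spread and Gnat1 the narrowest, and Pde6g is low only on the light-exposed wild-type arrays.

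Transducin changed in its gamma subunit. Gngt1, which encodes the rod gamma subunit that holds transducin at the membrane, read 16.61 and 16.80 in vehicle-treated exposed CLN3-deficient retinas, against 17.46 and 17.48 in unexposed ones. It read 16.62 and 16.75 in exposed wild-type retinas, against 17.28 and 17.76 in unexposed ones. The groups did not overlap in either genotype. Gngt1 fell to 58.9% of the unexposed level in CLN3-deficient retinas (log2 difference -0.77, SE 0.23, adjusted p = 0.0379) and to 56.1% in wild-type retinas (-0.84, SE 0.23, adjusted p = 0.0201). Gnat1, the alpha subunit that carries the signal to the phosphodiesterase, read 19.21 and 19.14 in vehicle-treated exposed CLN3-deficient retinas, against 19.28 and 19.21 in unexposed ones, and 19.07 and 19.14 in exposed wild-type retinas, against 19.21 and 19.23 in unexposed ones. Its differences of -0.07 and -0.12 (SE 0.18 each) had 95% intervals of -0.47 to 0.33 in CLN3-deficient and -0.52 to 0.29 in wild-type retinas. Gnb1, the beta subunit, read 18.80 and 18.93 in vehicle-treated exposed CLN3-deficient retinas, against 19.16 and 19.13 in unexposed ones, and 18.82 and 18.86 in exposed wild-type retinas, against 19.20 and 19.13 in unexposed ones. All its exposed arrays lay below all unexposed arrays, but the differences of -0.28 (adjusted p = 0.342) and -0.33 (adjusted p = 0.218) did not pass.

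Among the phosphodiesterase subunits, Pde6g and Pde6b fell in wild-type retinas, and no subunit passed in CLN3-deficient ones. Pde6g encodes the small gamma subunit that holds the enzyme inactive in the dark. It read 15.79 and 16.03 in vehicle-treated exposed CLN3-deficient retinas, against 16.15 and 15.92 in unexposed ones, and 14.42 and 14.47 in exposed wild-type retinas, against 16.48 and 15.79 in unexposed ones. The CLN3-deficient groups overlapped and the wild-type groups lay more than a log2 unit apart. In wild-type retinas Pde6g fell to 31.0% of the unexposed level (log2 difference -1.69, SE 0.25, adjusted p = 0.0017), and in CLN3-deficient retinas the difference was -0.13 (SE 0.25, adjusted p = 0.785, 95% interval -0.67 to 0.42). Pde6b, the catalytic beta subunit, read 15.02 and 15.36 in vehicle-treated exposed CLN3-deficient retinas, against 16.00 and 15.88 in unexposed ones, and 14.48 and 14.68 in exposed wild-type retinas, against 16.13 and 15.34 in unexposed ones. It fell in wild-type retinas (-1.16, SE 0.26, adjusted p = 0.00922) and missed the threshold in CLN3-deficient ones (-0.75, SE 0.26, adjusted p = 0.0708), with no overlap in either. Pde6a, the catalytic alpha subunit, read 17.12 and 17.36 in vehicle-treated exposed CLN3-deficient retinas, against 17.87 and 17.99 in unexposed ones, and 17.02 and 17.40 in exposed wild-type retinas, against 17.74 and 17.43 in unexposed ones. Its groups were separate in both genotypes, narrowly in the wild type, and neither difference passed (-0.69, adjusted p = 0.0554, and -0.38, adjusted p = 0.237).

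The modulatory subunit of the channel changed most among the 9 genes in CLN3-deficient retinas. Cngb1, whose product joins the channel's pore-forming subunits and is needed to bring the channel to the outer segment, read 11.49 and 11.46 in vehicle-treated exposed CLN3-deficient retinas, against 13.57 and 13.86 in unexposed ones. It read 11.33 and 11.87 in exposed wild-type retinas, against 14.05 and 12.29 in unexposed ones. The unexposed wild-type arrays were 1.76 apart, the widest gap between replicates among the 9 genes. Cngb1 fell to 21.2% of the unexposed level in CLN3-deficient retinas (log2 difference -2.24, SE 0.43, adjusted p = 0.00618) and to 33.7% in wild-type retinas (-1.57, SE 0.43, adjusted p = 0.0212), but without the first unexposed wild-type array the wild-type difference was -0.69 and no longer passed. Cnga1, the pore-forming subunit, read 17.34 and 17.68 in vehicle-treated exposed CLN3-deficient retinas, against 17.79 and 17.84 in unexposed ones, and 17.25 and 17.26 in exposed wild-type retinas, against 18.00 and 17.62 in unexposed ones. The exposed arrays lay below the unexposed arrays in both genotypes, and the differences did not pass (-0.31, adjusted p = 0.359, and -0.56, adjusted p = 0.0728).

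Sag, the arrestin that quenches the activated pigment and moves into the outer segment in light, read 18.03 and 17.85 in vehicle-treated exposed CLN3-deficient retinas, against 18.69 and 18.66 in unexposed ones. It read 17.72 and 18.18 in exposed wild-type retinas, against 18.83 and 18.66 in unexposed ones. No exposed array reached an unexposed one. Sag fell to 60.1% of the unexposed level in CLN3-deficient retinas (log2 difference -0.74, SE 0.21, adjusted p = 0.0355) and to 57.6% in wild-type retinas (-0.80, SE 0.21, adjusted p = 0.0195).

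**Figure D3:**
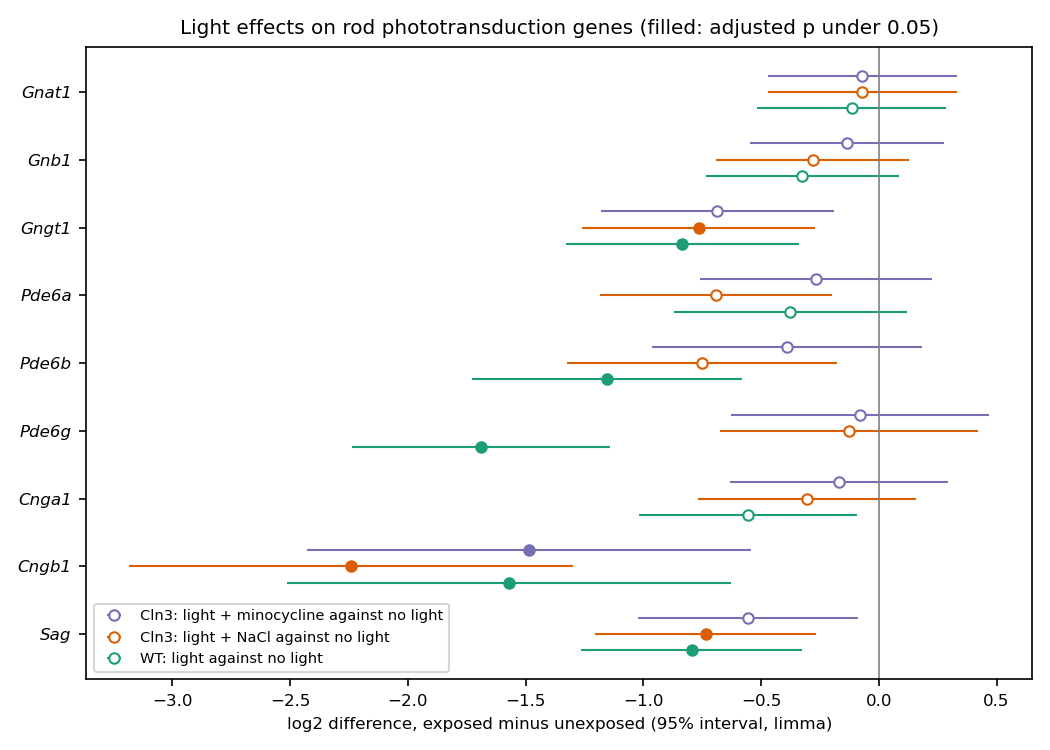
log2 difference of exposed minus unexposed retinas for each gene, with 95% intervals from limma, for minocycline-treated and vehicle-treated CLN3-deficient mice and for wild-type mice. Filled points have an adjusted p under 0.05. All points lie below 0, from -0.07 for Gnat1 to -2.24 for Cngb1, and Pde6g differs from 0 in wild-type retinas only.

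The calls rested on few arrays. In the CLN3-deficient comparison Cngb1 alone passed when any 1 of the 4 arrays was left out, the unexposed array with muscle transcripts included, and in the wild-type comparison Pde6g alone passed without the first unexposed array or without the first exposed array, and Sag was lost without the second unexposed array (-0.88). The first unexposed wild-type array was above the second for 8 of the 9 genes, with a median gap of 0.38 against 0.25 over all genes, and the second exposed wild-type array was above the first for all 9. With quantile normalization, Cngb1 alone passed in CLN3-deficient retinas, and Pde6b and Pde6g passed in wild-type retinas. With Y-linked transcripts as a covariate, 0 genes passed in either. Only the 2 minocycline arrays separate this covariate from the groups, so it shifts each light difference by the gap between those 2 mice. They also differed in other markers, such as the mean of the lens list (9.61 and 6.61). With that covariate the differences were -2.08 for Cngb1, -1.14 for Gngt1 and -0.60 for Sag in CLN3-deficient retinas. In wild-type retinas they were -1.73 for Cngb1, -1.38 for Pde6g, -1.32 for Pde6b, -0.94 for Sag and -0.47 for Gngt1. Some markers of other retinal cells were called as well, not all in the same direction. Over all genes, 6.57% were called higher and 11.0% lower in CLN3-deficient retinas after light with vehicle. The shares in wild-type retinas were 10.5% and 15.6%, and no marker list was tested against these shares. Among 5 bipolar cell markers 2 were higher in each genotype, and the mean of the 5 was 14.80 to 14.82 on vehicle-treated exposed arrays, against 14.42 to 14.55 on unexposed CLN3-deficient ones, and 14.80 to 14.94 on exposed wild-type arrays, against 14.44 to 14.60 on unexposed ones. Of the same 5, 2 were below 0 in CLN3-deficient retinas, both at an unadjusted limma p under 0.05. In wild-type retinas 3 were below 0, and the list median was -0.10. Among 7 microglial markers 3 were higher in CLN3-deficient retinas, and all 7 were above 0. The mean of the 7 was 8.25 to 8.33 on vehicle-treated exposed arrays and 6.38 to 6.42 on unexposed ones. In wild-type retinas 1 was higher and 2 were below 0, and the list ran from -0.97 to 1.49. The mean there was 7.40 to 7.50 on exposed arrays and 6.14 to 7.76 on unexposed ones. Of these markers Cx3cr1 (4.74 to 6.86 over the 10 arrays) and Tyrobp (4.80 to 7.30) were dim. Some markers of other retinal neurons and glia were lower together with the rod genes. Of 6 ganglion cell markers 4 were lower in wild-type retinas (mean 11.96 to 12.13 on exposed arrays, against 12.69 to 13.08 on unexposed ones) and 2 in CLN3-deficient retinas (12.24 to 12.28 on vehicle-treated exposed arrays, against 12.44 to 12.78). In CLN3-deficient retinas 3 of these 6 were above 0, and the list ran from -1.78 to 0.615. Of 5 amacrine and horizontal cell markers 3 were lower in wild-type retinas (11.02 to 11.32 on exposed arrays, against 11.61 to 11.91) and 1 in CLN3-deficient retinas, where 3 of the 5 were above 0. Lhx1 in this list was dim, at 4.67 to 5.68 over the 10 arrays. Of 4 Mueller glia markers 2 were lower in wild-type retinas (13.03 to 13.23 on exposed arrays, against 13.23 to 14.37) and 1 in CLN3-deficient retinas, where the list ran from -1.08 to 0.745. Their part in the lower rod values was not tested.

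Light combined with minocycline was set against no light in CLN3-deficient retinas. Only Cngb1 fell, which read 12.15 and 12.31 in minocycline-treated exposed retinas, against 13.57 and 13.86 in unexposed retinas (log2 difference -1.49, SE 0.43, adjusted p = 0.0494), and 6.74% of all genes were lower in this comparison. The call was lost when any of the 4 arrays was left out and after quantile normalization. In 7 of the 9 genes both minocycline arrays lay below both unexposed arrays (30.8% of all genes). The median difference of the 9 was -0.27, beside -0.155 over the 2020 genes at least as bright on average as Cngb1. Gngt1 read 16.97 and 16.60 in minocycline-treated exposed retinas, against 17.46 and 17.48 in unexposed ones (-0.69, adjusted p = 0.0778), and Sag read 18.05 and 18.19, against 18.69 and 18.66 in unexposed ones (-0.56, adjusted p = 0.124). Differences of -0.39 for Pde6b, -0.27 for Pde6a, -0.17 for Cnga1 and -0.14 for Gnb1 came with separate groups but did not pass. Gnat1 and Pde6g differed by -0.07 and -0.08, with overlapping groups. Of all calls in this comparison 64.1% were lower, and 51.6% after quantile normalization.

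Minocycline was then set against vehicle among exposed CLN3-deficient retinas, and none of the 9 genes passed the test. At the level of all genes, 0.00% were higher at the threshold, and 0 of the 9 reached an unadjusted p under 0.05. The fitted difference was 0 for Gnat1 and above 0 for the other 8. The median of the 9 was 0.15, beside 0.065 over the 2020 genes at least as bright on average as Cngb1. In 4 of the 9, Pde6a, Pde6b, Cngb1 and Sag, both minocycline arrays lay above both vehicle arrays, which was so for 17.9% of all genes. Cngb1 read 12.15 and 12.31 in minocycline-treated retinas, against 11.49 and 11.46 in vehicle-treated retinas, a difference of 0.76 (95% interval -0.19 to 1.70, adjusted p = 0.853). Pde6a read 17.51 and 17.82 in minocycline-treated retinas, against 17.12 and 17.36 in vehicle-treated retinas, a difference of 0.43 (-0.07 to 0.92, adjusted p = 0.828). Pde6b read 15.47 and 15.63 in minocycline-treated retinas, against 15.02 and 15.36 in vehicle-treated retinas, a difference of 0.36 (-0.21 to 0.93). All 3 intervals include 0, and that of Cngb1 is the widest. Sag differed by 0.18 (-0.29 to 0.65), and the other 5 genes by 0 to 0.15 with adjusted p of 0.961 to 1. This comparison shares its vehicle arrays with the light comparison above, so the 2 sets of differences are not independent. Sex was not balanced here. Y-linked transcripts were high on both vehicle arrays but low on the second minocycline array, which also had the high pigment epithelium markers. Both unexposed CLN3-deficient arrays had low Y-linked transcripts, so sex was not balanced in the comparison of minocycline with no light either.

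Between genotypes without light, no cascade gene passed, with 0.0308% of all genes higher in CLN3-deficient retinas. Pde6a was the 1 gene whose CLN3-deficient arrays both lay above the wild-type arrays, at 17.87 and 17.99 in CLN3-deficient retinas, against 17.74 and 17.43 in wild-type retinas (log2 difference 0.35, 95% interval -0.15 to 0.84), a separation seen for 15.6% of all genes. The other 8 differed by -0.10 to 0.55, each with an adjusted p of 0.997. The unexposed groups also differed in sex by their Y-linked transcripts, which cannot be told apart from genotype here. With these as a covariate the Pde6a difference was 0.04. That shift is set by the 2 minocycline arrays alone and does not separate sex from genotype. After light, Pde6g was higher in vehicle-treated CLN3-deficient retinas than in wild-type retinas, at 2.76 times the wild-type level (log2 difference 1.47, SE 0.25, 95% interval 0.92 to 2.01, adjusted p = 0.0284), and 0.687% of all genes were higher. Pde6b (0.61, adjusted p = 0.298) and Cnga1 (0.26, adjusted p = 0.618) also had both CLN3-deficient arrays above both wild-type arrays, as 20.7% of all genes did, without passing. The remaining 6 differed by -0.13 to 0.07. By the labels and the protocol the genotypes after light also differed in injection and in light dose. The dose was 15000 lux for 60 min in wild-type and 10000 lux for 30 min in CLN3-deficient mice. The Y-linked transcripts show that they differed in sex as well. None of these can be told apart from the genotype. The Pde6g call was lost when any 1 of the 4 arrays was left out (differences of 1.35 to 1.59) and with Y-linked transcripts as a covariate (1.16).

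The difference of the 2 light effects was tested as an interaction. For Pde6g it was 1.57 (SE 0.35, 95% interval 0.79 to 2.34), with an unadjusted p of 0.000925 and an adjusted p of 0.177, and it was therefore not called, and with Y-linked transcripts as a covariate it was 0.95. The shift with the covariate rests on the 2 minocycline arrays alone. The groups of this contrast differ in sex, in injection and, by the labels and the protocol, in light dose. None of these can be told apart from the interaction. No gene was called, with 0.00% of all genes higher. At an unadjusted p under 0.05 the same limma fit counted 1203 genes above 0 and 967 below. The interactions of the other 8 ran from -0.67 for Cngb1 to 0.41 for Pde6b, with adjusted p of 0.732 to 0.969.

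Cones run a parallel cascade with their own subunits, and 8 cone counterparts were measured. After light, 2 of the 8 fell in each genotype, the cone transducin alpha subunit Gnat2 and the cone arrestin Arr3. Of all genes 11.0% were lower in CLN3-deficient and 15.6% in wild-type retinas. Among the 2020 genes at least as bright on average as Cngb1 the shares were 20.2% and 24.4%. In CLN3-deficient retinas 4 of the 8 were above 0 and the list median was -0.17. In wild-type retinas 1 was above 0 and the median was -0.435. Gnat2 read 14.33 and 14.31 in vehicle-treated exposed CLN3-deficient retinas, against 15.01 and 15.08 in unexposed ones, and 13.98 and 14.23 in exposed wild-type retinas, against 15.08 and 15.20 in unexposed ones. Its log2 differences were -0.73 (adjusted p = 0.024) and -1.04 (adjusted p = 0.00396), where Gnat1 had differences of -0.07 and -0.12. Arr3 differed by -1.30 (adjusted p = 0.0247) in CLN3-deficient and -1.58 (adjusted p = 0.00783) in wild-type retinas, beside -0.74 and -0.80 for Sag. Gnb3, the beta subunit of cones and ON bipolar cells, rose in CLN3-deficient retinas (1.04, adjusted p = 0.0485), and its difference in wild-type retinas was 0.21 (adjusted p = 0.668). The cone channel subunit Cngb3 differed by 0.22 and -0.12 where Cngb1 differed by -2.24 and -1.57, and the cone inhibitory subunit Pde6h by -0.40 and -0.14 where Pde6g differed by -0.13 and -1.69. The differences between a rod gene and its cone counterpart were not tested.

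**Figure D4:**
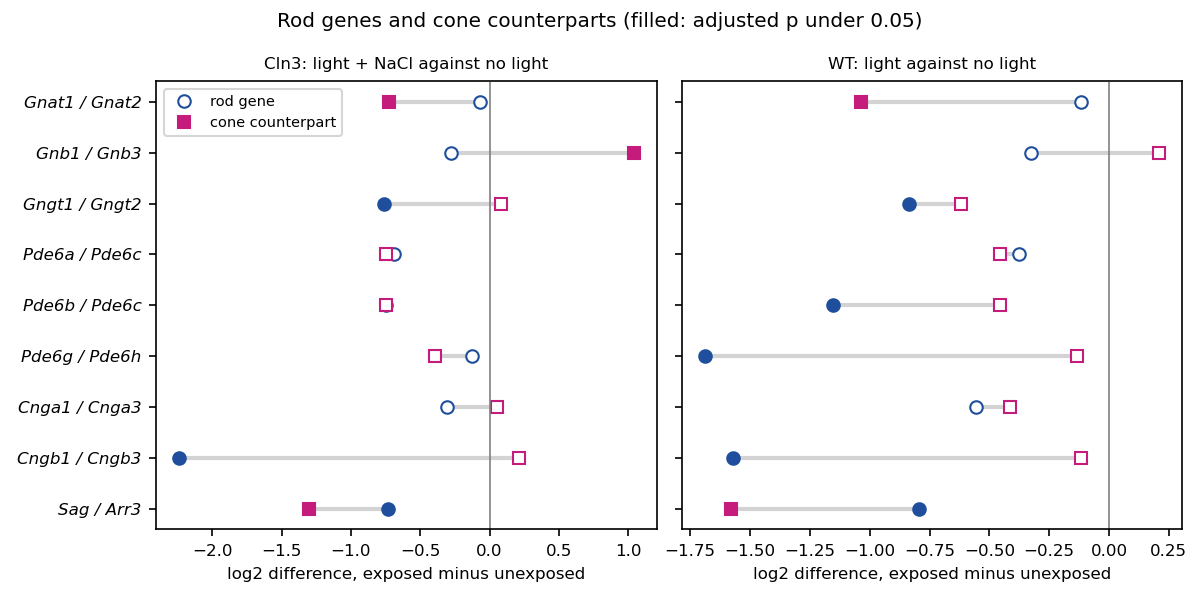
log2 difference of exposed minus unexposed retinas for each rod gene (circle) and its cone counterpart (square), in vehicle-treated CLN3-deficient mice on the left and wild-type mice on the right, each panel with its own horizontal scale. Filled symbols have an adjusted p under 0.05. Cngb1 lies far below Cngb3 in both panels, and Gnat2 lies below Gnat1 in both.

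Counts for the genes around the cascade varied by list. Beside them, 11.0% of all genes were lower in CLN3-deficient and 15.6% in wild-type retinas. Among the 2020 genes at least as bright on average as Cngb1 these shares were 20.2% and 24.4%. Of the 5 genes of cGMP synthesis and calcium feedback, 4 fell in each genotype, and their median log2 difference was -1.10 in CLN3-deficient and -1.36 in wild-type retinas. Guca1b, an activator of guanylate cyclase, differed by -1.77 in CLN3-deficient and -1.58 in wild-type retinas, the cyclase Gucy2e by -1.10 and -1.43, and the rod sodium-calcium exchanger Slc24a1 by -1.43 and -1.17, all called. Guca1a fell in wild-type retinas only by the test (-1.36, and -0.39 in CLN3-deficient retinas with adjusted p = 0.397), and Gucy2f was called in CLN3-deficient retinas (-0.995) and was at -0.78 in wild-type retinas (adjusted p = 0.0638). Of 6 genes that end or regulate the activity of the cascade, Grk1 fell in CLN3-deficient retinas (-1.14, adjusted p = 0.0115). It is the gene of the kinase that phosphorylates the activated pigment. None of the 6 fell in wild-type retinas, where Grk1 was at -0.74 (adjusted p = 0.051). The GTPase accelerator Rgs9 was at -0.44 in CLN3-deficient and -0.09 in wild-type retinas. Among 4 further photoreceptor genes, Aipl1, Unc119, Pde6d and Prcd, the last fell in both genotypes (-1.25 in CLN3-deficient and -1.33 in wild-type retinas). Pde6d and Unc119, which carry lipidated phosphodiesterase and transducin, fell in wild-type retinas (-1.11 and -0.93). Of 6 rod identity and structure genes, 4 fell in CLN3-deficient retinas and 5 in wild-type retinas, among them the rod transcription factor gene Nrl (-1.59 and -1.36), the disc rim gene Rom1 (-1.15 and -1.13) and Fscn2, which encodes a photoreceptor actin-bundling protein (-1.77 and -2.77). Of 4 widely expressed paralogues of the cascade proteins, none was called in CLN3-deficient retinas, and Gnb4 fell in wild-type retinas (-0.71, adjusted p = 0.0416). Gnb4 was dim, at 5.07 and 4.73 in exposed and 5.47 and 5.75 in unexposed wild-type retinas, below the lowest array median of 7.14.

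The 9 genes varied together over the 10 arrays to different degrees. Each gene's correlation with the mean of the other 8 (Pearson's r over 10 arrays that share the group differences) ran from 0.697 for Pde6g and 0.740 for Gnat1 to 0.955 for Pde6b. Outside the cascade, the genes whose values followed the mean of the 9 most closely were Pla2g7 (r = 0.985), Impdh1 (0.984) and Tnfaip3 (0.979), followed by Pacsin2, Otud7b, Pip4k2c, Uhrf2 and Uqcc3 (0.973 for the last). The mean of the 9 genes, each centred on its own average, was -0.03 and 0.02 on minocycline arrays and -0.31 and -0.17 on vehicle arrays of exposed CLN3-deficient retinas, against 0.42 and 0.42 on unexposed ones, and -0.61 and -0.40 on exposed wild-type arrays, against 0.58 and 0.07 on unexposed ones. All 4 unexposed arrays lay above all 6 exposed ones, the second unexposed wild-type array by the least.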

How the data were processed

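Retinal RNA of 10 mice, 5 groups of 2, was hybridised to Affymetrix arrays, Clariom S by the design text and the form of the cluster names, although the study's methods name another mouse array. The authors deposited log2 expression values per transcript cluster, made with Affymetrix Expression Console. Its version and summarisation method were not given in the sources used here. No scanner files were used here, and the values were taken as deposited. Array data carry no read depth, and 2 arrays per group limit the precision.

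Of 22206 clusters, 19572 had 1 gene symbol in the probe table and 2634 were unnamed. For 55 symbols with several clusters the one with the highest mean was kept, which left 19505 genes. Group means were fitted over all 10 arrays with limma 3.58.1 in R 4.3.3 (lmFit and eBayes, no trend), contrasts were tested two-sided, and p-values were adjusted over all 19505 genes by Benjamini-Hochberg, with calls at an adjusted p under 0.05. The fit was tested on simulated data. The named genes were the 9 members, the pathway lists by count with up to 4 genes of each by smallest p after light, their cone counterparts, and the 8 genes best correlated with the members. The members and lists were chosen with earlier results of these data known. Replicates are different mice, numbered in accession order. Alternatives were quantile normalization, median centring, a filter on dim genes, other variance models, fits over the groups compared, every cluster, the methods' t-test and threshold, Y-linked transcripts as a covariate, and leaving out each array.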

Additional observations from a re-analysis of the deposited data

Results flagged for a closer look

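The light effect on Pde6g, the inhibitory phosphodiesterase subunit, stood out because its size in CLN3-deficient and wild-type retinas differed by 1.57 on the log2 scale at an unadjusted p of 0.000925, while the adjusted p was 0.177. Both light-exposed wild-type arrays were below both unexposed wild-type arrays, and the CLN3-deficient groups overlapped. Sex, read from Y-linked transcripts, differed between exposed and unexposed mice in opposite directions in the 2 genotypes. By the labels and the protocol the exposed groups also differed in injection and in light dose. None of these can be told apart from the difference in light effects. It was 0.95 with Y-linked transcripts as a covariate, a shift set by the 2 minocycline arrays alone. No group had the 4 arrays needed to look for single arrays far from the rest.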

How the results depend on the processing

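With 2 mice per group, the counts of called cascade genes moved under several settings. In vehicle-treated CLN3-deficient retinas after light, 3 genes were lower as reported, 1 after quantile normalization, 4 without dim genes, 5 with trended and robust variances, 5 when only the compared groups were fitted, 0 by the methods' t-test after adjustment, 1 at the methods' threshold of a log2 difference of 2 with limma and 1 with the t-test, 0 with Y-linked transcripts as a covariate, and 1 to 1 with single arrays left out. In wild-type retinas after light, 5 were lower as reported, 6 with trended and robust variances, 2 after quantile normalization, 3 with only the compared groups, 0 by the adjusted t-test, 0 at the methods' threshold with either test, 0 with the Y-linked covariate, and 1 to 5 with single arrays left out. For minocycline with light against no light, 1 was lower as reported, 2 with trended and robust variances (Gngt1 and Sag, with Cngb1 lost), 0 to 0 with single arrays left out, and 0 after quantile normalization, after median centring, over every cluster, by the adjusted t-test, at the methods' threshold with either test and with the covariate. For genotype after light, 1 was higher as reported, and 0 by the adjusted t-test, at the methods' threshold with either test, with the covariate, and in the range of 0 to 0 with single arrays left out. The covariate could be told apart from the groups only through the 2 minocycline arrays. A lone array was taken to vary like the others. The causes of the other changes were not tested.

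Of the 63 differences of single cascade genes, 24 changed sign under some alternative, none of them called, and the largest of these was 0.67 in size. No paired analysis was possible because the replicate numbers follow accession order only. What signal over background limits was not examined, since background values were not used here.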
